A study of Dunaliella tertiolecta with 6 samples.

Results

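FOX1, FRE1A and FRE1B are the genes of Dunaliella tertiolecta that carry the names of a ferroxidase and of ferric reductases in the deposited annotation. They were picked out by those names, with earlier results of these data known, and are 3 of 14354 gene identifiers in the expression table. All 3 passed the filter on low values, which left 11273 genes to test. The organism is a wall-less green alga that tolerates high salt. Vegetative wild-type cells of strain UTEX LB 999 grew as shaken liquid cultures (140 rpm) in 2 M NaCl at 24 °C and in constant light of 100 µE per square metre per second. The groups were 0 µM added iron (3 libraries) and 1.5 µM added iron (3 libraries), each library from its own flask and labelled as 2 d, although another field of the labels gives 3 days of growth. Poly(A)-selected RNA was read as 50 nt single-end reads, and levels are FPKM, that is fragments per kilobase of a transcript and per unit of mapped reads in the library. FPKM can therefore be compared between genes as far as the lengths used are right, which was not tested. They are also shares of a library, so less RNA of a gene per cell and more RNA of other genes cannot be told apart.

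Many algae and fungi take up iron by a reductive route at the plasma membrane. A ferric reductase, a membrane flavocytochrome with heme and FAD, passes electrons to ferric iron outside the cell, and the ferrous iron it releases is oxidized again by a multicopper ferroxidase working together with an iron permease. In the related alga Chlamydomonas the ferroxidase is FOX1, the permease FTR1 and the reductase FRE1, and the transcripts of this route are used as markers of iron deficiency. The ferroxidase needs copper, which is loaded in the secretory pathway. The symbol pattern for iron permeases (FTR) matched none of the genes used here, so no gene named as a permease was analysed.

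The 3 genes lie on different scaffolds of the authors' assembly. FOX1 (Dte_g11478) lies on the minus strand of scaffold_09 from 5199388 to 5211892, FRE1A (Dte_g10060) on the plus strand of scaffold_05 from 17259912 to 17273698, and FRE1B (Dte_g10167) on the minus strand of scaffold_07 from 1372440 to 1395174. Their models hold coding sequence only, with no UTR. FOX1 has 31 coding exons and 3708 nt of coding sequence, and its exon number is above that of 96.3% of the 11216 nuclear genes tested, whose median is 9. Its introns are short, with a median of 248 nt. FRE1A has 15 exons and 3006 nt of coding sequence, and FRE1B 19 exons and 3357 nt. FRE1B covers 22735 nt of the scaffold against 13787 nt for FRE1A, with a median intron of 988 nt against 562 nt. The reductase copies thus differ in exon number and length, and neither shared all 6 values with any other tested gene.

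FOX1 was the member with the widest range. With 1.5 µM added iron its FPKM was 2.22, 7.54 and 3.03 in replicates 1, 2 and 3, and with no added iron it was 781, 827 and 934. All 3 libraries without added iron lay above all 3 with iron, and the lowest of them was 104 times the highest with iron. The mean rose from 4.26 ± 2.86 to 847 ± 78.8 FPKM (SD, n = 3), a 199-fold difference of means. On the log2(FPKM + 1) scale used for testing, which understates the change of low genes, the rise was 7.46 (SE 0.32, 95% interval 6.70 to 8.22, limma adjusted p = 5.254e-06).

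The spread of FOX1 was not even between the groups. Without added iron the highest library was 1.20 times the lowest, whereas with iron it was 3.39 times the lowest, owing to replicate 2. Without that library the fold of means was 323 in place of 199, and the log2 change was 7.87 (limma adjusted p = 2.23e-07). Within replicate numbers the folds of FOX1 were 352, 110 and 308. If the steps among the lowest FPKM values are single reads, the FOX1 values with iron rest on about 109 to 427 reads a library, against 44400 or more without added iron.

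FRE1A, a ferric reductase by its name, was at 3.39, 2.92 and 2.71 FPKM with iron and at 143, 166 and 180 FPKM without it. The groups did not overlap, and the lowest library without added iron was 42.0 times the highest with iron. The mean rose from 3.01 ± 0.35 to 163 ± 18.7 FPKM (SD, n = 3), or 54.0-fold, with a log2 fold change of 5.35 (SE 0.11, 95% interval 5.09 to 5.61, limma adjusted p = 1.712e-07). Within replicate numbers the folds were 42.0, 56.7 and 66.1.

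FRE1B, the other reductase copy, was at 7.50, 7.98 and 7.70 FPKM with iron and at 31.4, 32.3 and 36.0 FPKM without it. These groups did not overlap either, but the gap was smaller, with the lowest library without added iron at 3.94 times the highest with iron. The mean rose 4.30-fold, from 7.73 ± 0.24 to 33.2 ± 2.42 FPKM (SD, n = 3), and the log2 fold change was 1.97 (SE 0.08, 95% interval 1.78 to 2.16, limma adjusted p = 4.365e-06). Its folds within replicate numbers were 4.19, 4.05 and 4.67.

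**Figure D1:**
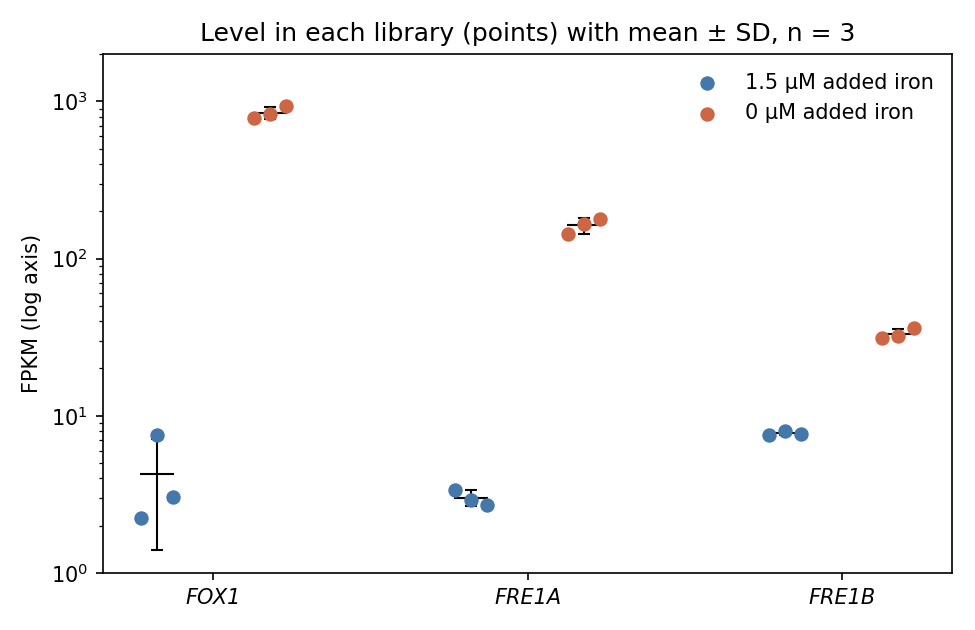
FPKM (log axis) of FOX1, FRE1A and FRE1B in each of the 6 libraries, as points, with the mean and SD of each group (n = 3) as black bars. Each gene is higher in the 3 libraries without added iron, and FOX1 at 1.5 µM spreads from 2.22 to 7.54 FPKM.

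All 3 members rose, where 11.6% of the genes tested rose and 18.7% fell at the same threshold (adjusted p under 0.05), and the median log2 fold change of all genes tested was -0.03. Libraries without added iron lay wholly above those with iron for 19.6% of genes. The FPKM of a library summed to between 808592 and 898151 without added iron and to between 982304 and 1021467 with it. When every library was scaled to one FPKM sum, the median over all genes became 0.17, and 3188 genes rose and 1087 fell in place of 1303 and 2105, while the members rose by 7.67 (FOX1), 5.55 (FRE1A) and 2.18 (FRE1B). By size of rise FOX1 stood at rank 8, FRE1A at rank 20 and FRE1B at rank 74 of the 11273 genes. A called rise of at least 5 on the log2 scale was found for 21 genes (0.186%), FOX1 and FRE1A among them.

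**Figure D2:**
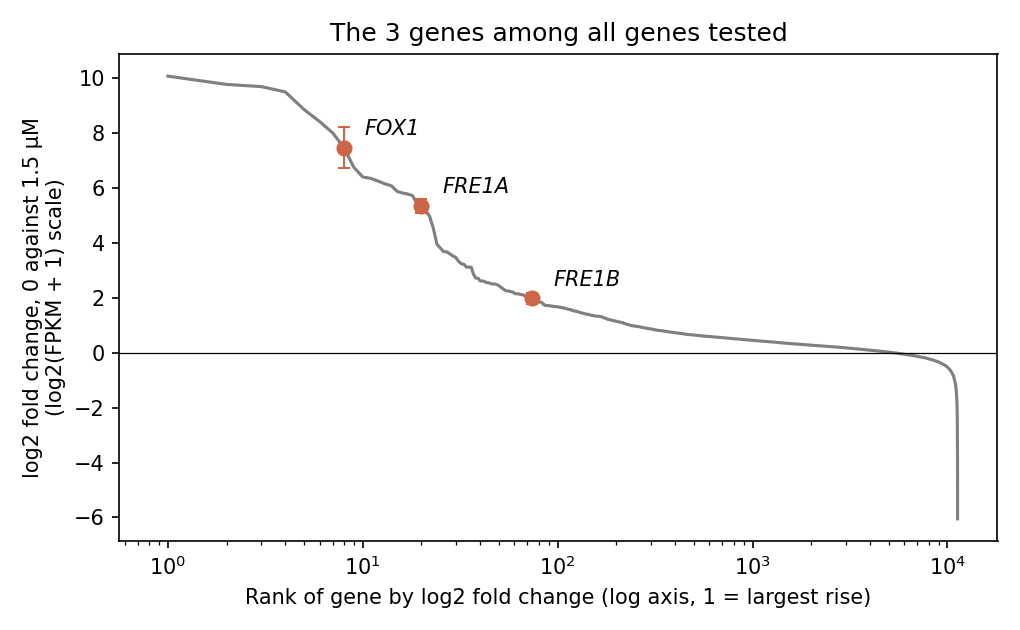
Log2 fold change of all 11273 genes tested (grey line), ordered by rank on a log axis, with the 3 members as points and 95% intervals as bars. FOX1 at rank 8 and FRE1A at rank 20 lie on the steep part of the curve, and FRE1B at rank 74 on its shoulder.

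The order of the 3 levels was not the same in both media. Without added iron every library had FOX1 above FRE1A and FRE1A above FRE1B, and no ranges overlapped. With iron FRE1B was the highest in every library. FOX1 was second in replicates 2 and 3 and the lowest in replicate 1, so that its range of 2.22 to 7.54 FPKM took in that of FRE1A and touched the lower end of that of FRE1B. Among all genes tested, the mean level of FOX1 without added iron was above that of 98.7% of genes, and with iron above that of 16.6%. FRE1A was above 95.2% and 8.63% of genes, and FRE1B above 78.7% and 35.7%.

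The reductase copies changed places. The ratio of FRE1A to FRE1B FPKM was 0.452, 0.366 and 0.352 with iron and 4.54, 5.13 and 4.99 without it. FRE1A thus made up 28.0% ± 2.73 of the summed FRE1 FPKM with iron and 83.0% ± 0.92 without it (SD, n = 3). The log2 ratio, with 1 FPKM added to each copy, went from -1.13 ± 0.15 to 2.25 ± 0.093, a difference of 3.38 that was far larger than the spread in either group. The exact permutation test over libraries gave a two-sided p = 0.1, the smallest that 3 against 3 libraries can give, so the test cannot pass 0.05. The ratio of FOX1 to both reductases summed was 0.204, 0.691 and 0.291 with iron and 4.49, 4.18 and 4.34 without it. Its SD was 0.156 around a mean of 4.33 without added iron and 0.260 around a mean of 0.395 with iron. There it varied 3.39-fold, as FOX1 itself did.

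**Figure D3:**
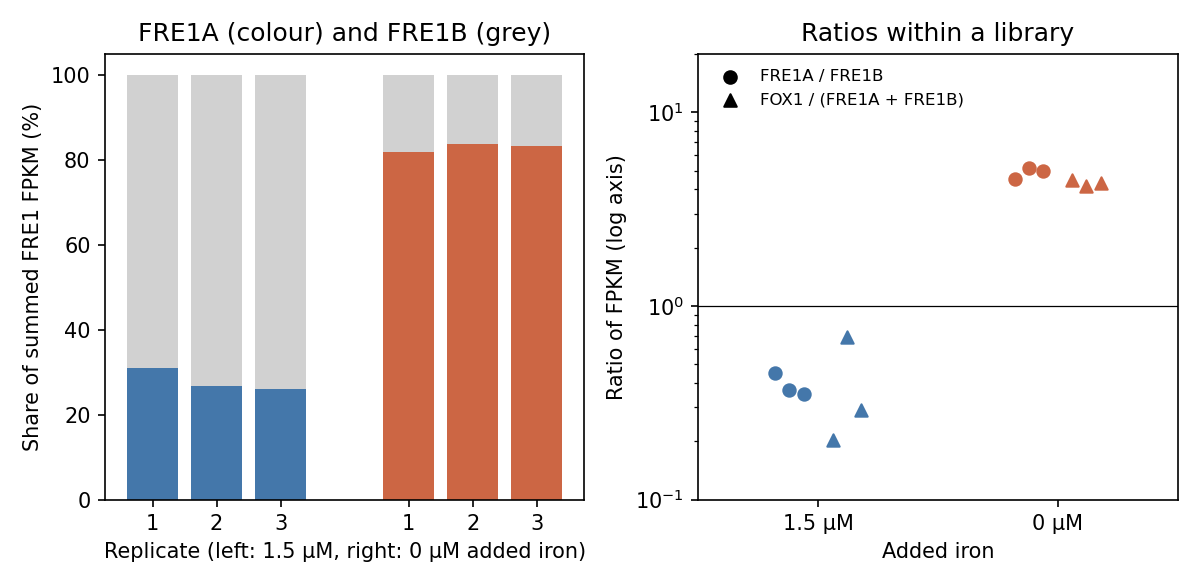
Left, the share of FRE1A (colour) and FRE1B (grey) in the summed FRE1 FPKM of each library, in percent, on an axis from 0. Right, the ratios of FRE1A to FRE1B (circles) and of FOX1 to both reductases (triangles) in each library, on a log axis. Both ratios are below 1 in all 3 libraries with iron and above 4 in all 3 without it.

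Each member has a neighbour on its 5′ side that is transcribed away from it across a short gap. Between coding starts the gap was 463 nt for FOX1, 401 nt for FRE1A and 354 nt for FRE1B, and 39.0% of nuclear genes tested have such a head-to-head neighbour within 500 nt. The UTRs are not in the models, so how far the transcripts reach into these gaps was not tested. The unnamed neighbour of FOX1, Dte_g11479, was at 5.53, 4.79 and 5.09 FPKM with iron and at 16.4, 15.2 and 15.7 FPKM without it, and rose by 1.45 on the log2 scale (SE 0.08, limma adjusted p = 2.075e-05). ARD1, beside FRE1A, was at 103 ± 5.45 FPKM with iron and fell to 67.5 ± 4.10 FPKM without it (-0.61 on the log2 scale, limma adjusted p = 0.000962). NUOP1, beside FRE1B and named for a subunit of mitochondrial complex I, had 141 ± 7.65 FPKM with iron and 144 ± 12.8 FPKM without it (0.03, limma adjusted p = 0.8108), and passed with equal FPKM sums (0.26, adjusted p = 0.0263). On the 3′ sides, across gaps of 4656 to 6288 nt, the neighbour of FOX1 was listed at 0 in all libraries, CGL146 beside FRE1A did not pass (-0.13, limma adjusted p = 0.3743), and Dte_g10166 beside FRE1B fell by 0.74 on the log2 scale (limma adjusted p = 0.005325).

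**Figure D4:**
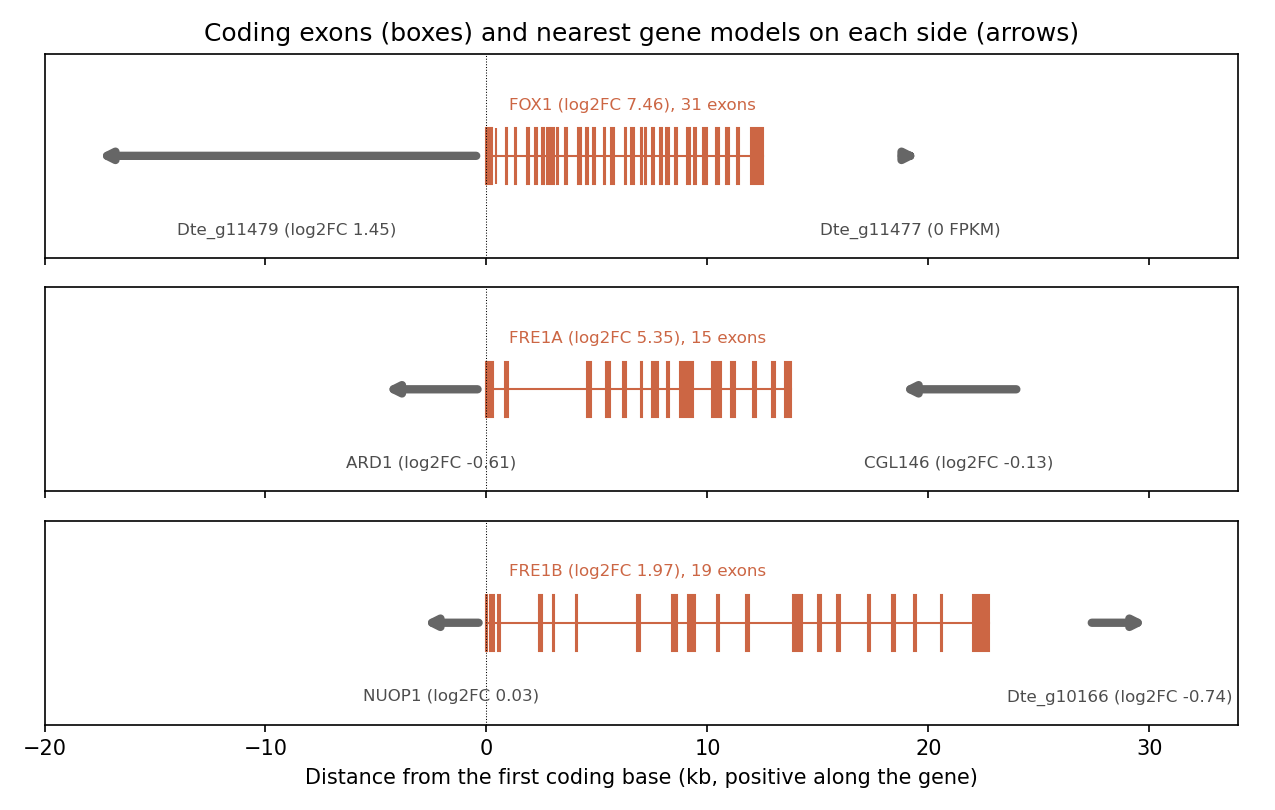
Coding exons of the 3 members (boxes) and the nearest gene model on each side (arrows pointing along transcription), against the distance from the member's first coding base in kb. The gaps on the 5′ side are 463, 401 and 354 nt, and the log2 fold changes in brackets differ in sign between the neighbours there.

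The genes whose profiles over the 6 libraries lay nearest to each member were looked up among all genes tested, by the Euclidean distance between log2(FPKM + 1) profiles centred on their means. For FOX1 the nearest was SUTP3 at a distance of 1.20, and the next 2 were unnamed. SUTP3 rose from 0.125 ± 0.056 to 287 ± 28.8 FPKM, a 2289-fold difference of means against 199-fold for FOX1. For FRE1A the nearest were CREG1B at 0.351, which rose from 41.3 ± 1.83 to 1523 ± 197 FPKM, and MCA1 at 0.553, which rose from 4.65 ± 0.50 to 295 ± 21.6 FPKM. The 3 nearest to FRE1B were unnamed, the first of them Dte_g09102 at 0.167 (3.59 ± 0.13 to 17.5 ± 0.33 FPKM). The members were not each other's nearest profiles, and FRE1A came at place 16 in the order of genes around FOX1, at a distance of 2.82. With 2 conditions, such a distance mostly compares the sizes of the changes on the log2(FPKM + 1) scale, which understates those of low genes.

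Other genes of iron transport and storage moved in both directions. Of 21 genes listed by symbol, 8 rose, 6 fell and 7 did not pass, beside 11.6% higher and 18.7% lower among all genes tested. The median log2 fold change of the list was 0.06, against -0.03 over all genes tested. Without the ZIP genes, a change to the list made after seeing the data, the median was 0.61. Of the 12 genes then left 6 rose, 3 fell and 3 did not pass. The transferrin-like gene TFN3 rose most, with 0.40 ± 0.145 FPKM with iron and 80.7 ± 10.4 FPKM without it (5.86 on the log2 scale, limma adjusted p = 1.732e-07). Its fold of means was 202, against 199 for FOX1, although its log2 change with 1 FPKM added was smaller. The transferrin-like genes TFN1A (2.15) and TFN5 (0.96) rose, as did the metal transporter genes IRT1A (3.10), IRT1B (2.54), NRAMP4 (1.75), ZIP12 (1.35) and ZIP3 (0.60). TFN1A had the highest level of the list, at 2941 ± 46.2 FPKM without added iron, and was at 675 ± 185 FPKM with iron. FER1 for the iron store ferritin (-1.26), MFL1, named as a mitoferrin-like carrier (-1.32), TFN7 (-0.72), ZIP9 (-1.13), ZIP8 (-0.40) and ZIP4 (-0.42) fell. ZIP3 lost its call with replicates 1 and 2 only, and ZIP8 and ZIP4 with that setting and with equal sums. ZIP4 also lost it without any of 0 µM replicates 1 and 3 and 1.5 µM replicates 1 and 3 (adjusted p from 0.0644 to 0.0938). FPN1, named for the iron exporter ferroportin (0.25), TFN1B (-0.11), TFN6 (-0.20), ZIP7 (0.30), ZIP10 (0.06), ZIP11 (-0.11) and ZIP13 (-0.28) did not pass. Of these, TFN6 passed in the fit blocked on replicate number (adjusted p = 0.0425) and without 0 µM replicate 3 (0.0478), ZIP13 without 0 µM replicate 3 (0.0440), FPN1 with equal sums (0.46 higher), and ZIP7 with equal sums and quantile normalization. TFN6, TFN1B and ZIP11 had the opposite sign with equal sums.

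**Figure D5:**
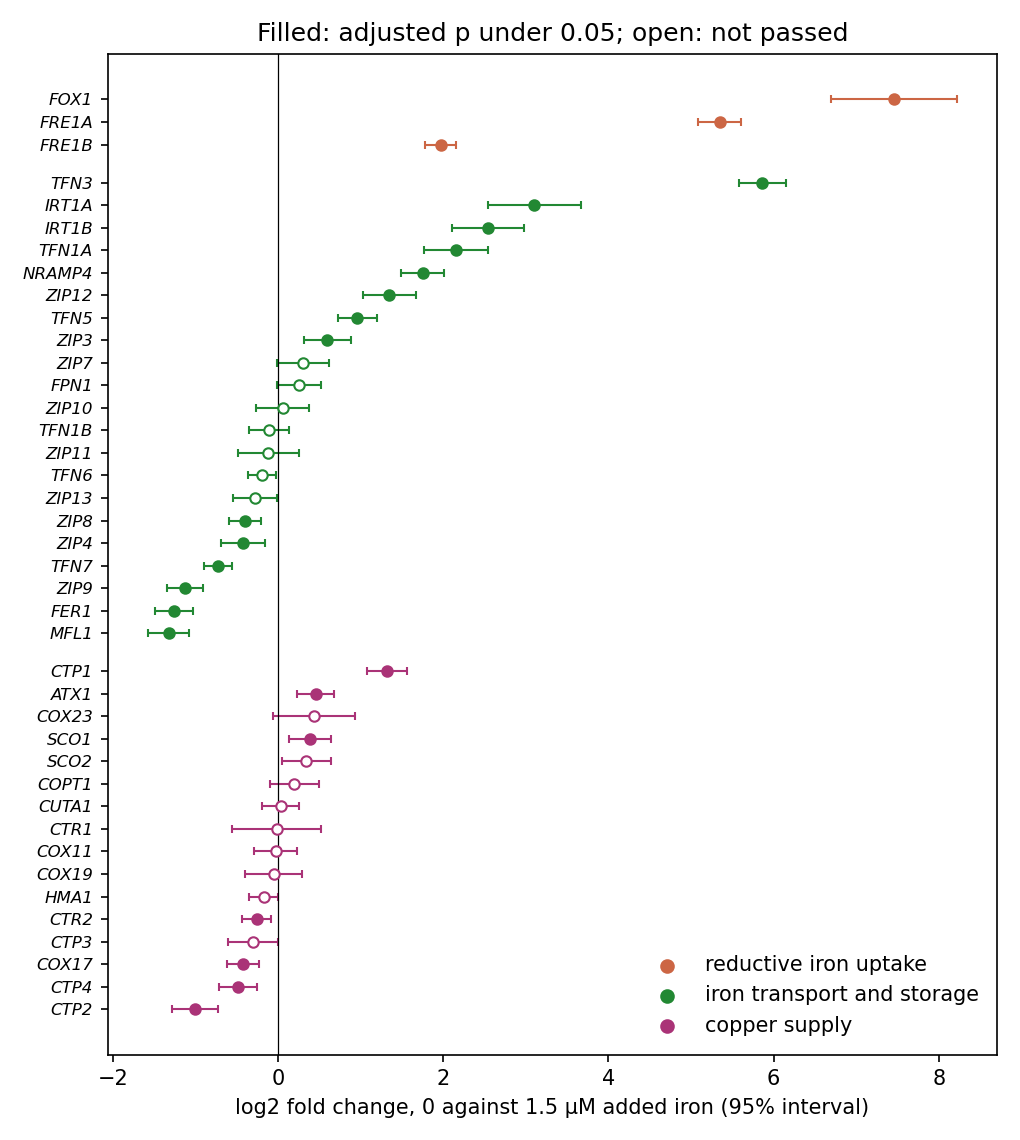
Log2 fold change without against with added iron (points) and 95% interval (bars) for the reductive uptake genes, the iron transport and storage genes and the copper supply genes, filled where the adjusted p is under 0.05. FOX1 (7.46), TFN3 (5.86) and FRE1A (5.35) lie far to the right, and the copper supply genes lie between -1.01 and 1.32.

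Genes that supply copper, the metal of FOX1, changed in both directions, by at most 1.32 on the log2 scale. Of 16 copper supply genes 3 rose, 4 fell and 9 did not pass, with a median log2 fold change of -0.02, where 11.6% of all genes tested rose and 18.7% fell. This balance depended on the scaling. With equal FPKM sums 6 of the 16 rose and 1 fell, where 3188 of all genes tested rose and 1087 fell. COX23, SCO2 and COPT1 were then called higher (limma adjusted p = 0.0269, 0.00466 and 0.0289). Counts this small do not set the list apart from all genes. CTP1 is a copper ATPase gene, and its namesake in Chlamydomonas is placed in the secretory pathway that loads the ferroxidase. It was at 3.19 ± 0.31 FPKM with iron and rose to 9.47 ± 0.80 FPKM without it (1.32 on the log2 scale, limma adjusted p = 8.831e-05). ATX1, for a copper chaperone that hands copper to such ATPases, rose from 207 ± 6.37 to 285 ± 35.4 FPKM (0.46, limma adjusted p = 0.0105). SCO1, for a copper chaperone of cytochrome oxidase, rose by 0.39, a call lost without any 1 library other than 1.5 µM replicate 3 (adjusted p from 0.0544 to 0.10). The copper ATPase genes CTP2 (-1.01) and CTP4 (-0.48), COX17 for another chaperone of cytochrome oxidase (-0.42) and the transporter gene CTR2 (-0.26) fell. CTP4, COX17 and CTR2 were not called with equal sums, nor with replicates 1 and 2 only. CTR2 also lost its call without any 1 of the 6 libraries (adjusted p from 0.0558 to 0.12). CTR1, for a copper uptake transporter, was at 314 ± 92.8 FPKM with iron and 302 ± 43.0 FPKM without it (-0.01, limma adjusted p = 0.9676).

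Among 9 genes listed by symbol as copper enzymes, 1 rose, 3 fell and 5 did not pass, again beside 11.6% and 18.7% of all genes tested. Without PAM16, PAM18 and PAM68, a change made after seeing the data, 0 of the 6 genes left rose, 2 fell and 4 did not pass. PCY1 for plastocyanin, the copper protein of photosynthetic electron transport, had 10038 ± 752 FPKM with iron and fell to 6550 ± 486 FPKM without it (-0.62 on the log2 scale, limma adjusted p = 0.001107). COX2A, for a part of the copper-binding subunit of cytochrome oxidase, fell by 0.37 on the log2 scale, which was not called with equal sums, nor with replicates 1 and 2 only. COX2B, by its name another part of that subunit, had 378 ± 30.5 FPKM with iron and 379 ± 45.7 FPKM without it (limma adjusted p = 0.991). It was called higher with quantile normalization (0.24, adjusted p = 0.0389) and with equal sums (0.23, adjusted p = 0.0443). The other genes called were PAM18 (0.55) and PAM68 (-0.49), whose symbols are those of protein import and photosystem II assembly factors and not of copper enzymes. PAM18 lost its call without any 1 library other than 0 µM replicate 3 (adjusted p from 0.0579 to 0.108) and in the fit blocked on replicate number (0.0599). PHM1B, also on the list, did not pass (0.28, limma adjusted p = 0.0560). It was called higher with median-ratio scaling, quantile normalization, equal sums and without 1.5 µM replicate 2 (adjusted p from 0.00926 to 0.0431). The symbol patterns for NADPH oxidases, the flavocytochrome relatives of ferric reductases, matched none of the genes used here.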

How the data were processed

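The authors deposited 1 FPKM value per gene and library, per the file headers, made from reads aligned to their own assembly with STAR (2.4.0j) and Cuffdiff (2.0.2), per the submitters' processing notes. The deposited annotation gave names, positions and other gene model values, with 14351 of 14354 identifiers matched and 3449 named. Strand use in counting was not given in the sources used here. Genes with a mean of at least 1 FPKM were tested as log2(FPKM + 1) with limma 3.58.1 (eBayes with trend, R 4.3.3), two-sided, with Benjamini-Hochberg adjustment over 11273 genes and a threshold of 0.05. The procedure was tested on simulated data. The members, lists and tests were chosen with earlier results of these data known. Named are the members, the iron lists, called and some uncalled copper genes, adjacent genes and the 3 nearest profiles of each member, with few unnamed genes. Nothing in the labels says that each flask had its own preculture, and p-values then reflect only how far these flasks differed, which may be technical.

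Read totals were not used here. FPKM times coding length (genes of at least 400 nt) clustered in steps, with 12.7% to 23.6% of low values in the most crowded 1% bin. In some libraries the steps appeared only or best with the length shortened by 205 nt. Taken as 1 read, the steps give 10200000 to 20200000 reads a library, as a rough guide only. Deviations from the group means correlated at 0.239, 0.262 and 0.168 between libraries of the same replicate number, and at -0.22 to -0.0144 between those of unlike number. Deviations cancel out within each group, so positive values for like numbers bring negative ones on average for unlike numbers by construction. The 2 sets of values are thus not separate observations. The main fit, which gave the SE and intervals, had no block for replicate number. A pairing by number was used only for the replicate block and for the folds within replicate numbers. The labels do not state such a pairing. Python 3.11.15 with pandas 2.3.3, scipy 1.17.1 (exact tests) and matplotlib 3.10.9 (figures) was used.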

Additional observations from a re-analysis of the deposited data

How the results depend on the processing

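FOX1, FRE1A and FRE1B kept their direction and call in all 17 alternatives (pseudocounts, filters, scalings, variance models, replicate block, libraries left out). Their log2 fold changes ranged from 7.17 to 7.87, 5.22 to 5.75 and 1.91 to 2.18, with adjusted p up to 0.00163, and libraries left out singly gave 7.17 to 7.87, 5.27 to 5.44 and 1.91 to 2.01. The FRE1A to FRE1B ratio change was 3.31 to 3.65 in 10 alternatives and 3.33 to 3.46 without single libraries. With the replicate block, FOX1 rose by 7.46 (adjusted p = 2.433e-05), and the ratio change of 3.38 had an exact sign-flip p = 0.25, the smallest that 3 pairs can give. The block changed no call of a named gene other than those of TFN6, PAM18, COX23, SCO2 and CTP3.

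Over all genes, equal sums gave 3188 higher and 1087 lower, and replicates 1 and 2 only gave 549 and 1136, against 1303 and 2105. Single libraries left out gave 795 to 1288 higher, the fewest without 0 µM replicate 2 (795) and 1.5 µM replicate 3 (855), and 1526 to 1910 lower. With replicates 1 and 2 only, 3 copper supply and 1 copper enzyme genes were called, against 7 and 4. Lists amended after seeing the data had 9 calls (iron transport and storage without ZIP genes, against 14) and 2 calls (copper enzymes without PAM16, PAM18 and PAM68). Without single libraries the lists had 13 to 15 (iron transport and storage), 5 to 6 (copper supply) and 3 to 5 (copper enzymes) calls. The cause was not tested. If a step is 1 read, the FRE1A values with iron rest on about 77.9 to 167 reads a library, which limits their precision.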

Other observations

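FOX1 and its head-to-head neighbour Dte_g11479 rose together, and this arrangement was counted over the genome after that was seen. Of 79 genes that rose at least 2-fold and have a tested head-to-head partner within 500 nt, 32 had a partner that rose, 3 a partner that fell and 44 a partner that did not pass. A partner rose for 40.5% of these genes, against 12.4% of all 4172 genes with such a partner. A pair in which both rose at least 2-fold is counted from both ends, and no test was made. FOX1 and Dte_g11479, which prompted the count, are such a pair and were not left out. The 4172 genes also include the 79. FRE1A and FRE1B belong to the remainder, since ARD1 fell and NUOP1 did not pass.

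The library with the highest value at 1.5 µM was not the same for all uptake genes. FOX1 was highest in 1.5 µM replicate 2 (7.54 FPKM), as was TFN1A (888 FPKM against 575 and 563), whereas IRT1A was highest in replicate 1 (37.2 FPKM against 21.1 and 17.6) and FRE1B differed by 1.06-fold at most.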
